A study of Homo sapiens with 6 samples.

Results

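The genes described here are 10 genes of the glucagon and cAMP route to gluconeogenesis, namely PPARGC1A, PPARGC1B, CREB1, CRTC2, CREBBP, EP300, SIK1, GCGR, PRKACA and SIRT1. Their regions were taken from 4 deposited lists of occupied regions by the gene symbol in each row. In all, 276 of 271336 regions carried 1 of these symbols, and 8 of the 10 genes had a region in at least 1 list, out of 16428 gene symbols in the lists. RPB1, the largest subunit of RNA polymerase II, and RPB1 phosphorylated at serine 2 of its C-terminal repeats (pSer2) were profiled by ChIP-seq in HepG2 cells, a human liver tumor line. The SHP-1-WT cells were CRISPR controls and the SHP-1-KO cells were CRISPR knockouts of the tyrosine phosphatase SHP-1, which is encoded by PTPN6. Cells were grown as cultures derived from single cells and were not treated further, so a difference between SHP-1-WT and SHP-1-KO cannot be told apart from a difference between clones. There was 1 library for each antibody and genotype, plus 2 input libraries that were not analysed here, so no value has a replicate error and no test was possible.

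In the fasted liver, glucagon binds its receptor GCGR and raises cAMP, which releases the catalytic subunit of protein kinase A, PRKACA. This kinase phosphorylates the transcription factor CREB1, which binds cAMP response elements (CRE) in DNA and recruits the acetyltransferases CREBBP and EP300 and the coactivator CRTC2. The kinase SIK1 keeps CRTC2 in the cytoplasm, whereas the coactivators PPARGC1A (PGC-1α) and PPARGC1B (PGC-1β) act at genes of gluconeogenesis and mitochondria, and SIRT1 deacetylates PPARGC1A among other proteins. RPB1 detected with the antibody used here is usually densest near gene starts. Serine 2 phosphorylation accumulates as polymerase moves through a gene and is usually densest toward the gene end.

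Because CREB1 acts through CRE motifs, the 250 bases upstream of the start of the canonical GENCODE release 44 transcript were read from hg38 for all 10 genes and searched on both strands for the full CRE TGACGTCA and for its shorter form TGACG, which overlaps the full motif. The full motif occurred in 2.41% and the shorter form in 25.4% of 19962 protein-coding promoter windows of the same length. PPARGC1A was the 1 gene of the 10 with a full CRE. CREBBP had 2 copies of the shorter form, PRKACA had 1, SIK1 had 3, and the remaining 6 genes had neither form. The windows of PPARGC1A, with the full CRE, and of CREBBP, with 2 copies of the shorter form, are shown. The windows of EP300 and CREB1 are shown for their RPB1 start regions. These had the lowest and highest ratio of SHP-1-KO to SHP-1-WT among the genes with a start region in both lists. The windows of SIK1 and PRKACA, which also hold the shorter form, are not shown. Capitals mark TGACG or its reverse complement, and each window ends at the base before the start, 5′ to 3′ on the strand of the gene.
PPARGC1A, chr4:23890048-23890297, reverse strand: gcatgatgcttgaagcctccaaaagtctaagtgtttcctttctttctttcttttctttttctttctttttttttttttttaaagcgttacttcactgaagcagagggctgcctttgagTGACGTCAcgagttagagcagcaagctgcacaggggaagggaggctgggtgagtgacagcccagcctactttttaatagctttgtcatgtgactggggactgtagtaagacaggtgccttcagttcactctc
CREBBP, chr16:3880714-3880963, reverse strand: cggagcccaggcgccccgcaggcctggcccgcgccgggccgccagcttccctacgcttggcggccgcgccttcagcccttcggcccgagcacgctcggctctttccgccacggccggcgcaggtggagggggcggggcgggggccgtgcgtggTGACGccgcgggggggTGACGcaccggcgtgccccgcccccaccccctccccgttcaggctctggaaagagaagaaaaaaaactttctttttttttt
EP300, chr22:41092342-41092591, forward strand: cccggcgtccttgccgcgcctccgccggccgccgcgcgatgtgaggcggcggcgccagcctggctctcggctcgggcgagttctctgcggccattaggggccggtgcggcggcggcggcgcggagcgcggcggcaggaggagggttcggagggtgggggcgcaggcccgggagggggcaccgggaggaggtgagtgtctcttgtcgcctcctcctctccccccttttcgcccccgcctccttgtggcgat
CREB1, chr2:207529712-207529961, forward strand: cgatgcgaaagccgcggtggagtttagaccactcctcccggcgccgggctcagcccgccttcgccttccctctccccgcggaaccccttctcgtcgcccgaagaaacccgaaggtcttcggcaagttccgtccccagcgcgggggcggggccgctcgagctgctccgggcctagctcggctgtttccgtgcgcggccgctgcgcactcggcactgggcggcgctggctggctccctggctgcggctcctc
The PPARGC1A window had a GC content of 44.4% and 3 CpG dinucleotides. The CREBBP, EP300 and CREB1 windows had GC contents of 72.4%, 76.8% and 72.4% and 31, 35 and 33 CpG dinucleotides, where the median GC content of all windows was 63.2%. The full CRE in the PPARGC1A window began 132 bases before the start. The match describes letters in this window, and no binding of CREB1 was measured.

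The number of RPB1 regions assigned to the 10 genes was 25 in SHP-1-WT cells and 19 in SHP-1-KO cells, from lists of 46045 and 41605 regions. Of these, 14 and 10 were annotated by the authors as promoter, which in these files means within 1000 bp of a listed gene start. Over the whole lists, 20525 of 46045 and 19708 of 41605 regions carried that annotation. PPARGC1A had 5 RPB1 regions in SHP-1-WT and 4 in SHP-1-KO, CRTC2 had 3 and 3, CREBBP 2 and 3, and SIRT1 3 and 1. CREB1 went from 1 to 4 and EP300 from 1 to 3, whereas PPARGC1B went from 2 to 0 and PRKACA from 8 to 1. The lower total in SHP-1-KO rested on the last gene, since without PRKACA the counts were 17 in SHP-1-WT and 18 in SHP-1-KO. Among the 5797 genes with 1 RPB1 region in SHP-1-WT, the median number in SHP-1-KO was 1. Of these genes, 99.3% had as many SHP-1-KO regions as CREB1 or fewer, and 98.4% as many as EP300 or fewer. None of the 3 EP300 regions in SHP-1-KO had its summit within the canonical transcript. The authors annotated 1 as distal intergenic, upstream of the gene, with a fold enrichment over input of 5.47. The other 2, of 3.58 and 4.22, had summits 780 and 1369 bases past the gene end. The SHP-1-WT region, of 4.38, had its summit within the transcript, near its end. The regions over the EP300 and CREB1 starts carry other symbols and are outside these counts. SIK1 and GCGR had no region in any of the 4 lists.

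For pSer2, the 10 genes had 124 regions in SHP-1-WT and 108 in SHP-1-KO cells, from lists of 102674 and 81012 regions. EP300 alone held 52 and 49 of them, the 148th and 130th largest counts among 12740 and 11433 genes with a pSer2 region. CREB1 had 25 and 20, PPARGC1A 17 and 15, CREBBP 13 and 10, SIRT1 9 and 11, PRKACA 7 and 2, and CRTC2 1 and 1. PPARGC1B, SIK1 and GCGR had none. The plot of region counts shows these numbers gene by gene.

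**Figure D1:**
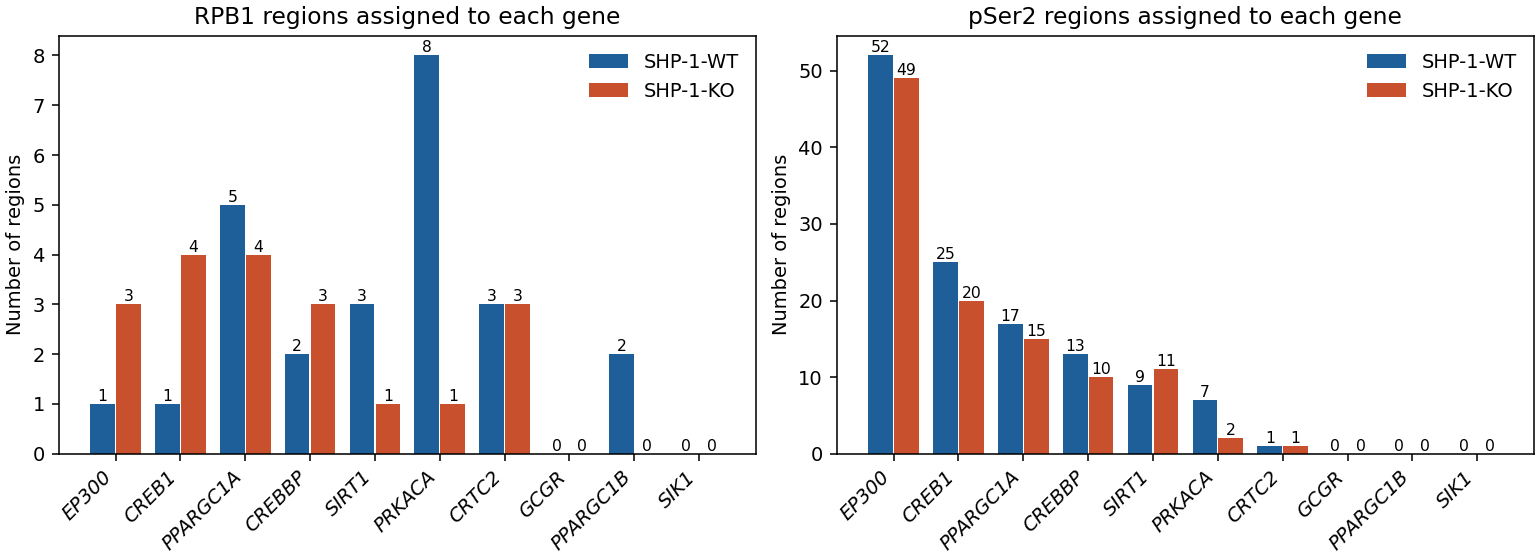
Number of RPB1 regions (left) and pSer2 regions (right) assigned by the authors to each of the 10 genes (horizontal axis), in the SHP-1-WT list (blue bars) and the SHP-1-KO list (orange bars), 1 library each. PRKACA stands out for RPB1 with 8 against 1, and EP300 for pSer2 with 52 and 49.

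Next to gene starts, RPB1 values are fold enrichments over input at the summit of a region, as the peak caller gave them. For the strongest RPB1 region within 1 kb of the canonical start, the median gene had a SHP-1-KO to SHP-1-WT ratio of 0.717 (log2 -0.48) among 11478 genes with a region in both lists, with the 10th and 90th percentiles at log2 -1.02 and 0.06. A difference in scale between the lists and a general difference in RPB1 cannot be told apart with 1 library per group. Differences are therefore also given after subtracting this median. A 2-fold lower value in SHP-1-KO was seen for 10.9% of these genes and a 2-fold higher value for 0.235%. With 1 library per group, a value past 2-fold is a size and not a test.

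SIRT1 had the strongest start region of the 10 genes in SHP-1-WT cells, with a fold enrichment of 60.4 (chr10:67884063-67885586, rank 819 of 46045) against 52.0 in SHP-1-KO cells (chr10:67884239-67885366, rank 522 of 41605). Its log2 ratio was -0.22, or 0.26 above the median gene.

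CREB1 had the highest ratio of SHP-1-KO to SHP-1-WT at its start. The region over its start, which the authors assigned to MYOSLID-AS1, had a fold enrichment of 41.2 in SHP-1-WT (chr2:207529000-207530460, rank 3012) and 55.0 in SHP-1-KO (chr2:207529010-207530434, rank 425). The log2 ratio of 0.42, or 0.90 above the median gene, matched or exceeded the ratios of 97.3% of the genes. A smaller region in intron sequence, assigned to CREB1 itself, had a fold enrichment of 5.47 in SHP-1-WT and 7.52 in SHP-1-KO, with summits 731 and 663 bases past the start. The SHP-1-KO list held 3 more RPB1 regions in intron sequence, with summits from 2160 to 3399 bases past the start and fold enrichments from 4.13 to 4.53, where the SHP-1-WT list had none.

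EP300 went the other way. Its start region, which the authors assigned to the microRNA gene MIR1281 just upstream, had a fold enrichment of 49.1 in SHP-1-WT (chr22:41090770-41093127, rank 1833) and 23.9 in SHP-1-KO (chr22:41090729-41092832, rank 4544). The log2 ratio was -1.04, or -0.56 relative to the median gene, and 9.58% of genes had a ratio as low or lower. EP300 was thus the 1 gene of the 7 with a start region in both lists that was 2-fold lower, beside the background of 10.9% of genes, and none of the 7 was 2-fold higher. The summits lay at -740 and -743 bases from the canonical start, on the upstream side. CREBBP, the close paralog of EP300, had 40.6 in SHP-1-WT (chr16:3879427-3881653, rank 3125) and 28.5 in SHP-1-KO (chr16:3879529-3881444, rank 3243), a log2 ratio of -0.51 that was within 0.03 of the median gene.

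PRKACA had a start region of 30.1 in SHP-1-WT (chr19:14116951-14120189, rank 5467) and 28.0 in SHP-1-KO (chr19:14117446-14119223, rank 3373). The log2 ratio of -0.11 was 0.37 above the median gene. CRTC2 had 22.0 in SHP-1-WT (chr1:153957854-153959612, rank 7870) and 22.8 in SHP-1-KO (chr1:153957761-153959048, rank 4912), a log2 ratio of 0.05 that was 0.53 above the median gene. In both genes the region lies close to the gene end of an upstream neighbor on the same strand, ASF1B for PRKACA and SLC39A1 for CRTC2, and the SHP-1-WT region reaches into it.

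PPARGC1A had a start region of 19.1 in SHP-1-WT (chr4:23889717-23890221, rank 8767) and 13.7 in SHP-1-KO (chr4:23889762-23890207, rank 8790). Its log2 ratio of -0.48 equaled that of the median gene to 2 decimals. A region in its intron sequence about 25 kb past the start was also present in both lists, with 7.33 in SHP-1-WT (chr4:23864778-23865588) and 7.09 in SHP-1-KO (chr4:23864762-23865584). PPARGC1B had a weak start region in SHP-1-WT only, with a fold enrichment of 5.51 (chr5:149730177-149730612, rank 22735) that 3.74% of genes with a start region did not exceed. Its other SHP-1-WT region, inside an intron, had a fold enrichment of 4.01 (chr5:149799346-149799545), and the SHP-1-KO list held no region assigned to PPARGC1B. It was the 1 gene of the 8 with RPB1 regions in SHP-1-WT that had none in SHP-1-KO, where 9.09% of 14164 genes did so. PCK1, the gene of gluconeogenesis on which the study centers, was likewise listed at its start with a fold enrichment of 6.96 in SHP-1-WT and not in SHP-1-KO.

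**Figure D2:**
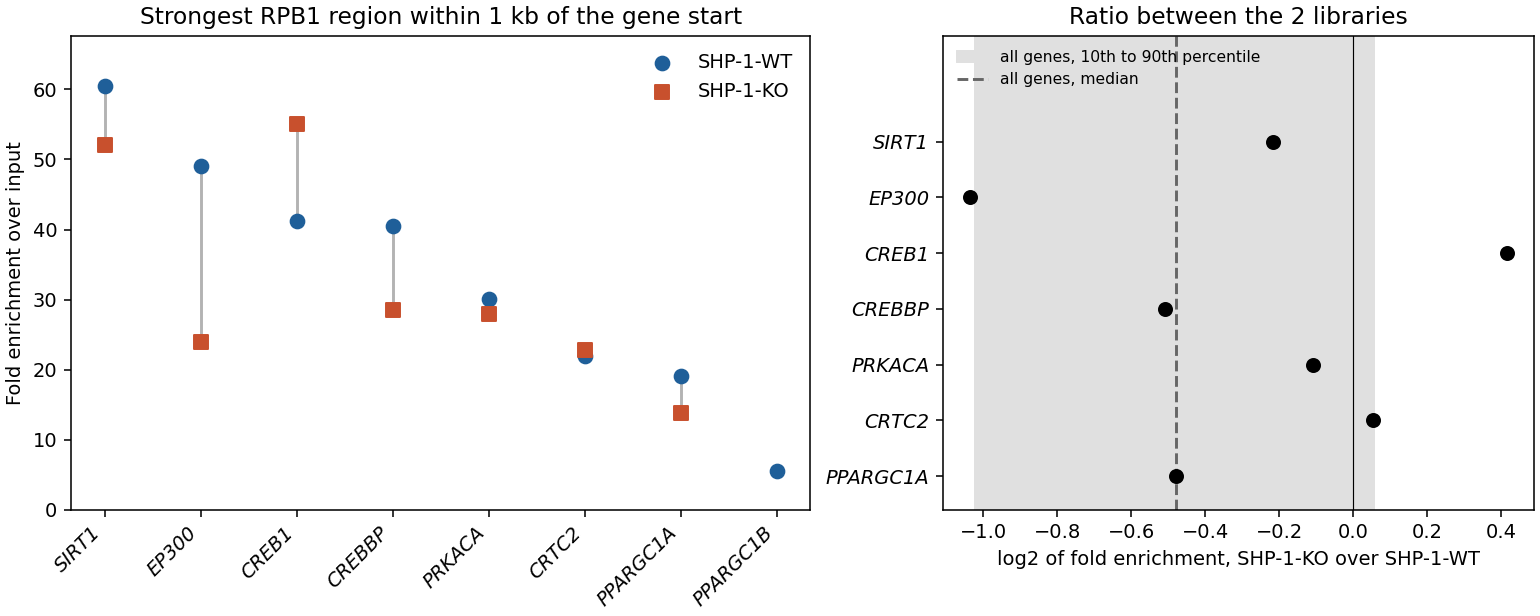
Left, fold enrichment over input of the strongest RPB1 region within 1 kb of the canonical start of 8 genes in SHP-1-WT (blue circles) and SHP-1-KO (orange squares), 1 library each. Right, log2 of SHP-1-KO over SHP-1-WT for the 7 genes in both lists, with the median (dashed line) and the 10th to 90th percentile (gray) of all genes. CREB1 at 0.42 lies above the gray band and EP300 at -1.04 at its lower edge.

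The authors' own symbols leave the start regions of EP300 and CREB1 to MIR1281 and MYOSLID-AS1. By these symbols, 6 of the genes had a promoter RPB1 region in both lists. Of these 6, 4 were lower and 2 higher in SHP-1-KO, whereas 2 lay below and 4 above the median of all genes. CREB1 was among the higher genes by its smaller region in intron sequence, at 5.47 and 7.52. None of the 6 differed by 2-fold, where 10.9% of 11250 genes were 2-fold lower and 0.684% were 2-fold higher. Their median log2 ratio was -0.16, and that of all genes was -0.46. By position, 5 of 7 were lower and 2 higher, with a median log2 ratio of -0.22, and relative to the median of all genes 2 lay below and 5 above.

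The position of the RPB1 regions of PRKACA shows what its count consists of. In SHP-1-WT, 3 regions lay in PRKACA introns with fold enrichments from 4.89 to 6.32, 1 was the start region, and 4 lay within ASF1B, a histone chaperone gene upstream, with fold enrichments from 3.50 to 6.25. In SHP-1-KO only the start region was listed. Among the 350 genes with 8 RPB1 regions in SHP-1-WT, the median number in SHP-1-KO was 6, and 7 genes (2%, PRKACA included) had 1 or fewer. The SHP-1-WT regions of PRKACA without a counterpart thus had fold enrichments from 3.50 to 6.32, next to 30.1 at the start.

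Many regions of the 10 genes were listed in a single genotype. Of the 25 RPB1 regions in SHP-1-WT, 10 (40%, 95% Wilson confidence interval 23.4 to 59.3) shared at least 1 bp with a SHP-1-KO region, where 61.9% of all SHP-1-WT regions did. Of the 19 in SHP-1-KO, 11 (57.9%, 36.3 to 76.9) shared sequence with a SHP-1-WT region, where 74.9% of all SHP-1-KO regions did. The median RPB1 fold enrichment was 13.2 for the overlapped regions and 4.38 for the others in SHP-1-WT, and 7.52 and 4.18 in SHP-1-KO. For pSer2, 60 of 124 (48.4%, 39.8 to 57.1) SHP-1-WT regions and 64 of 108 (59.3%, 49.8 to 68.1) SHP-1-KO regions were overlapped, against 52.2% and 69.9% of all regions. The pSer2 medians lay closer together, at 3.62 for overlapped regions and 3.56 for the others in SHP-1-WT, and 3.56 and 3.28 in SHP-1-KO. The strongest pSer2 region listed in a single genotype was in EP300 in SHP-1-KO, with a fold enrichment of 6.41 (chr22:41129706-41130113) that 92.1% of its list did not exceed. These percentages depended on how regions were counted. Among regions with −log10 q-values from 5 upward, 61.5% of the SHP-1-WT and 90% of the SHP-1-KO RPB1 regions were overlapped, beside 69.6% and 81.8% of all such regions. For pSer2 the same cutoff gave 39.6% in SHP-1-WT and 51.4% in SHP-1-KO, beside 54.0% and 70.8% of all such regions. When each region of a pair had to cover 50% or more of the other, 25% of the SHP-1-WT and 28.7% of the SHP-1-KO pSer2 regions were overlapped, beside 26.0% and 32.9% of all regions. Taken by the annotated gene interval, 55.6% of the SHP-1-WT and 78.3% of the SHP-1-KO RPB1 regions were overlapped, beside the 61.9% and 74.9% of all regions. The Wilson intervals cover counting error only, and regions of the same gene are not independent, so they do not carry the spread between libraries. The start regions of EP300 and CREB1, which were found in both genotypes, are not among the counts because they carry other symbols.

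**Figure D3:**
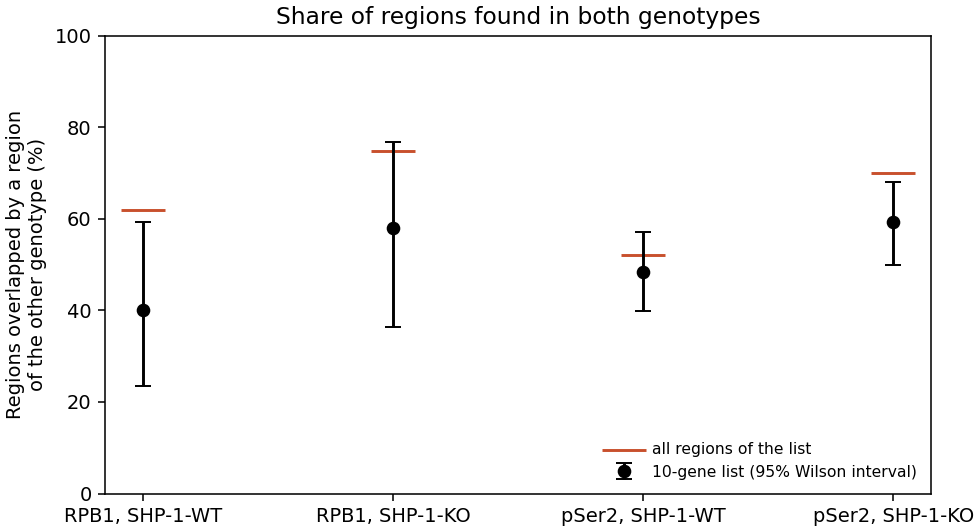
Percentage of the regions of the 10 genes that shared at least 1 bp with the other genotype's list (black points, bars are 95% Wilson intervals for counting error) in each of the 4 lists, with the percentage over all regions of the list (orange lines). With an overlap of at least 1 bp the points run from 40% to 59.3%, each below the line of its own list. With the stricter q-value, the reciprocal overlap or the annotated gene interval, the SHP-1-KO RPB1 share lay above that of its list and the others stayed below.

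Among the 7 genes with pSer2 regions, the summits were spread over the whole transcript, with the largest number in its closing part. When each canonical transcript was divided into 3 equal stretches, the summits of 24 of the 124 SHP-1-WT regions (19.4%) fell in the opening stretch, 27 (21.8%) in the middle, 46 (37.1%) in the closing stretch, 20 (16.1%) past the gene end and 7 (5.65%) upstream. In SHP-1-KO the numbers were 15 (13.9%), 24 (22.2%), 44 (40.7%), 20 (18.5%) and 5 (4.63%) of 108. Over all protein-coding genes, the closing stretch held 27.1% of the pSer2 regions in SHP-1-WT and 27.0% in SHP-1-KO. The genes differed in this. EP300 had 21 summits in the middle and 17 in the closing stretch in SHP-1-WT and 19 in each in SHP-1-KO. No region assigned to CRTC2 or PRKACA had its summit in the closing stretch. Regions toward the PRKACA end carried the symbol of the neighboring gene SAMD1 and are not counted here. CREB1 gave 15 and 11 of the closing summits, and without it the share was 31 of 99 (31.3%) in SHP-1-WT and 33 of 88 (37.5%) in SHP-1-KO. For RPB1, the opening stretch held 11 of 25 (44%) in SHP-1-WT and 8 of 19 (42.1%) in SHP-1-KO, beside 33.1% and 35.6% over all protein-coding genes.

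EP300 had pSer2 regions along its length and its strongest pSer2 region at the gene end, with a fold enrichment of 13.1 in SHP-1-WT (chr22:41179500-41182278, rank 934 of 102674) and 15.3 in SHP-1-KO (chr22:41179507-41183169, rank 467 of 81012). Both summits lay about 1.5 kb past the end of the canonical transcript, at 1526 and 1485 bases. The median fold enrichment over its regions was 3.59 in SHP-1-WT and 3.60 in SHP-1-KO. The log2 ratio of the strongest region was 0.23. Near the EP300 start, the strongest pSer2 region had 4.67 in SHP-1-WT and 3.70 in SHP-1-KO, with summits on opposite sides of the start, at -790 and 643 bases. EP300-AS1, a noncoding gene on the opposite strand (chr22:41174591-41197508), overlaps this end, and ChIP-seq does not tell the strands apart. EP300-AS1 overlapped 6 of the 52 regions in SHP-1-WT and 4 of the 49 in SHP-1-KO, the strongest of each included. Another noncoding gene on the opposite strand, ENSG00000232754 (chr22:41169190-41183144), overlapped 9 in SHP-1-WT and 7 in SHP-1-KO, again with the strongest of each.

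CREBBP also had its strongest pSer2 region at its end, within the 3′ UTR, with 7.11 in SHP-1-WT (chr16:3724458-3726094, rank 5399) and 8.10 in SHP-1-KO (chr16:3724651-3726314, rank 3260), a log2 ratio of 0.19. In SHP-1-WT 4 weak CREBBP regions lay in the opening stretch, with fold enrichments from 2.79 to 3.83, and the SHP-1-KO list had none there. SIRT1 had 6.32 at its end in SHP-1-WT (chr10:67917410-67920883, rank 8132) and 6.59 in SHP-1-KO (chr10:67918291-67919879, rank 6042). At the SIRT1 start, the pSer2 values were 4.67 and 5.34.

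CREB1 had its strongest SHP-1-WT pSer2 region at its end, with 5.55 (chr2:207602819-207605809, rank 12780), and its strongest SHP-1-KO region at its start, also with 5.55 (chr2:207529881-207530303, rank 10841). The start value was 3.43 in SHP-1-WT, so CREB1 had higher RPB1 and higher pSer2 values at its start in SHP-1-KO. The end value in SHP-1-KO was 5.24 (chr2:207603211-207605976). Of the CREB1 regions, 21 of 25 in SHP-1-WT and 14 of 20 in SHP-1-KO lay within the full locus of METTL21A (chr2:207580631-207625928). METTL21A is a methyltransferase gene on the opposite strand, so the pSer2 signal of these genes cannot be told apart there. The canonical METTL21A transcript is shorter (chr2:207612739-207625394) and overlapped none of the CREB1 regions.

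PPARGC1A had a different pattern, with 11 of 17 SHP-1-WT and 14 of 15 SHP-1-KO pSer2 summits past the end of its canonical transcript. The strongest of these had 4.67 in SHP-1-WT (chr4:23763411-23764009) and 4.45 in SHP-1-KO (chr4:23777321-23777547), and the summits lay 28322 and 14537 bases past that end. The deposited annotation places 7 of the 11 and 12 of the 14 in a longer PPARGC1A transcript that runs past this end, and the other 4 and 2 in transcripts of noncoding genes on the opposite strand. By position in GENCODE, ENSG00000250137, the longer of these noncoding genes, overlapped 3 of the regions in SHP-1-WT and 0 in SHP-1-KO. At the start, a pSer2 region of 3.75 was listed in SHP-1-WT and none in SHP-1-KO.

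**Figure D4:**
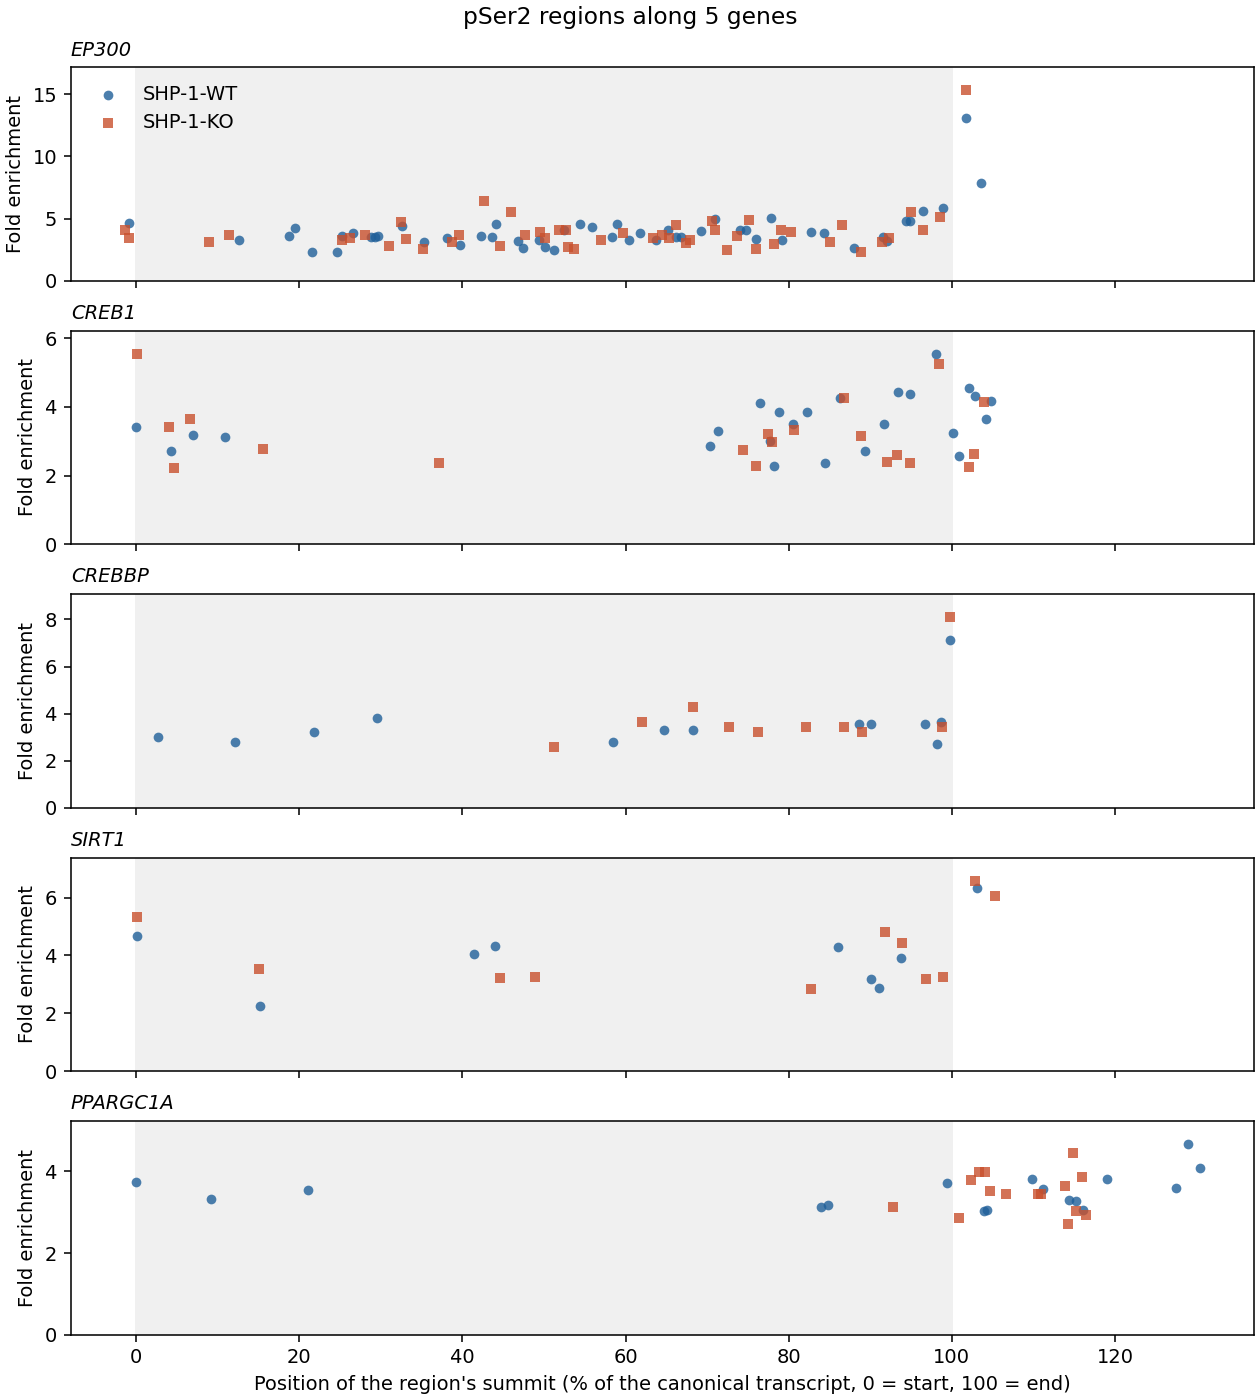
Fold enrichment over input (vertical axis) of each pSer2 region against the position of its summit along the canonical transcript (horizontal axis, 0 at the start and 100 at the end, gray) for EP300, CREB1, CREBBP, SIRT1 and PPARGC1A, in SHP-1-WT (blue circles) and SHP-1-KO (orange squares). The strongest EP300 regions, at 13.1 and 15.3, lie just past the gene end in both genotypes, and most PPARGC1A regions lie beyond 100.

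The strongest pSer2 regions assigned to CRTC2 and PRKACA lay across the border of the gene or outside it. The CRTC2 region, with 9.18 in SHP-1-WT (chr1:153958493-153959642, rank 2617) and 7.74 in SHP-1-KO (chr1:153958486-153959578, rank 3679), spans the CRTC2 start and the end of SLC39A1, a zinc transporter gene. The strongest PRKACA region, with 6.61 in SHP-1-WT (chr19:14126908-14127672) and 4.71 in SHP-1-KO (chr19:14126888-14127356), lies inside ASF1B. Of the regions assigned to PRKACA, 2 in SHP-1-WT, of 3.05 and 3.56, lay within the gene, and none in SHP-1-KO did. Stronger regions toward the PRKACA end carried the symbol of SAMD1. Their values were 8.06 in SHP-1-WT (chr19:14091154-14092829) and 7.68 in SHP-1-KO (chr19:14094470-14095148).

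Over the 7 genes with a pSer2 region in both lists, the strongest region was lower in 3 and higher in 4 in SHP-1-KO, with log2 ratios from -0.49 for PRKACA to 0.23 for EP300. The median was 0.0012, and over 10870 genes it was -0.095. These ratios do not always pair the same place. For CREB1, whose ratio is the median, the strongest region lay at the end in SHP-1-WT and at the start in SHP-1-KO. Outside promoters the CREB1 log2 ratio was -0.08. The strongest PPARGC1A regions of the lists did not overlap either. The PRKACA value is that of the region inside ASF1B. By position, over the canonical transcript and 5 kb past its end, PRKACA had 8.06 in SHP-1-WT and 7.68 in SHP-1-KO (log2 -0.07). Both values came from regions toward its end that the authors assigned to SAMD1, a neighboring gene, and the regions do not overlap each other. On the positional measure 2 genes were lower and 5 higher, with a median of 0.059 beside -0.107 over all genes. Here too the CREB1 value paired its end in SHP-1-WT with its start in SHP-1-KO. PPARGC1A was lower by symbol and higher by position. Its positional value paired its start in SHP-1-WT (3.75) with a region past its end in SHP-1-KO (3.99). By the authors' symbols none differed by 2-fold, where 2.3% of all genes were 2-fold lower and 1.07% were 2-fold higher. None of the 7 genes with pSer2 regions in SHP-1-WT was without them in SHP-1-KO, where 14.7% of 12740 genes were.

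**Figure D5:**
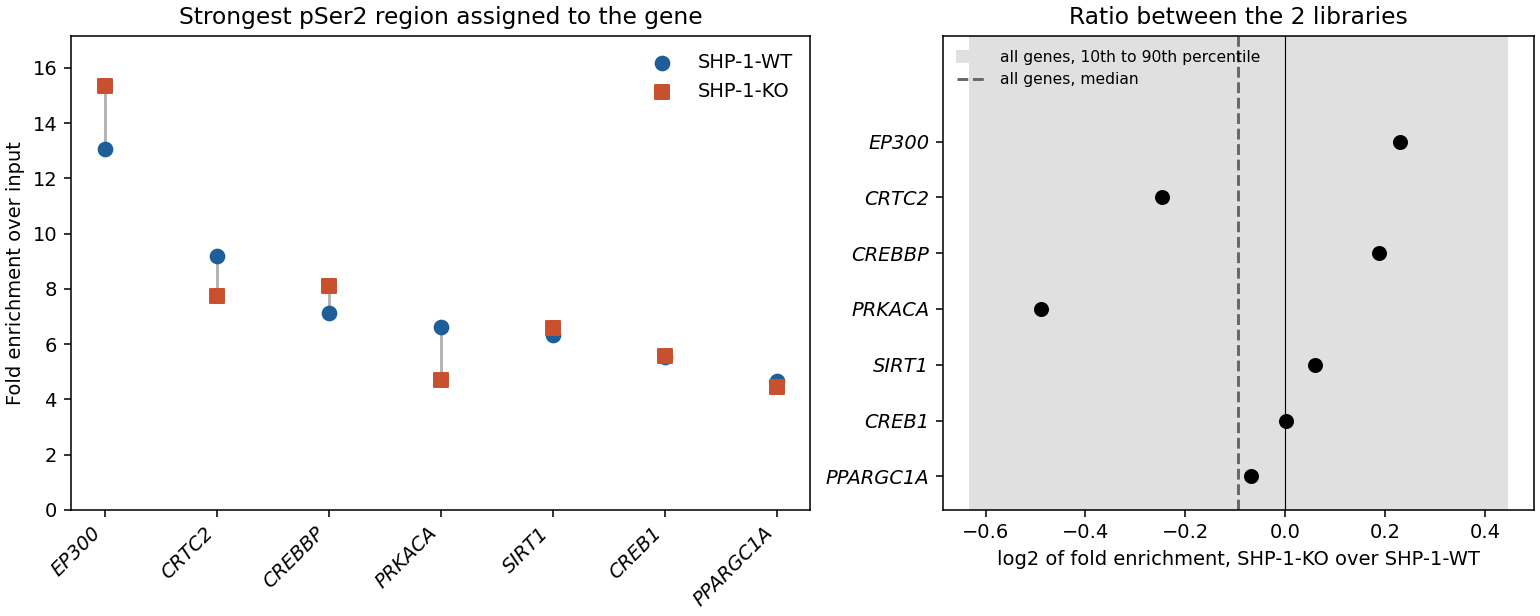
Left, fold enrichment over input of the strongest pSer2 region assigned to each of 7 genes in SHP-1-WT (blue circles) and SHP-1-KO (orange squares), 1 library each. Right, log2 of SHP-1-KO over SHP-1-WT, with the median (dashed line) and the 10th to 90th percentile (gray) of all genes, and all 7 genes lie inside that band.

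SIK1 and GCGR call for separate statements. Of the 12600 windows of 50 bases in the SIK1 transcript region (chr21:43414483-43427131), 96.0% recur exactly elsewhere on chromosome 21, between bases 6111131 and 6123778, where RefSeq lists a copy of the gene with the synonym SIK1B. U2AF1 and CBS, which were picked after their values were seen because 93.7% and 95.6% of their windows recur on that chromosome, also had no region in any list. PKNOX1 nearby, with 2.30% of its windows repeated, had 13 RPB1 regions in SHP-1-WT and 11 in SHP-1-KO. The part of the repeated sequence in the absence of SIK1 regions was not tested, so the lists do not show whether SIK1 was occupied. No repeat search was made for GCGR (chr17:81804150-81814008), and the absence of a region there means that none passed the threshold of the peak caller.

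The wider pathway was described by 36 further genes of cAMP signaling, CREB family members, CREB coactivators and hormone-regulated transcription factors. Of these, 29 had an RPB1 region in SHP-1-WT and 29 in SHP-1-KO. For the 27 with a promoter region in both lists, the strongest was lower in 22 and higher in 5 in SHP-1-KO, with a median log2 ratio of -0.51 beside -0.46 for all genes. Relative to that median of all genes, 14 lay below and 13 above. A 2-fold lower value was seen for 2 of the 27, beside the 10.9% of all genes. The lowest ratio belonged to the nuclear receptor coactivator NCOA2, at 26.0 in SHP-1-WT and 12.4 in SHP-1-KO (log2 -1.07), and the highest to the arginine methyltransferase PRMT5, at 4.92 and 5.90 (log2 0.26). The PRMT5 value is that of a weak region, and within 1 kb of its canonical start the values were 28.3 and 22.6 (log2 -0.33), so its direction turned. On that positional measure 25 of 28 genes were lower and 3 higher. Its lowest and highest genes, named after their values were seen, were PRKAR1B, a regulatory subunit of protein kinase A, at 38.0 and 17.9 (log2 -1.09), and the phosphodiesterase PDE3B, at 33.4 and 36.1 (log2 0.11). For pSer2, 27 genes had a region in SHP-1-WT and 24 in SHP-1-KO, a loss of 3 beside the 14.7% of all genes. The 24 in both had a median log2 ratio of -0.0061, with 12 lower and 12 higher. The cAMP phosphodiesterase PDE4D had the lowest pSer2 ratio, at 14.7 and 6.65 (log2 -1.15), and was the 1 gene of the 24 past 2-fold, beside the 2.3% of all genes that were 2-fold lower. The arginine methyltransferase PRMT1 had the highest, at 6.10 and 8.53 (log2 0.49), whereas by position PRMT5 did, at 5.41 and 8.20 (log2 0.60).

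As a check of the labeled cell type, marker genes were looked up in the lists. Of 8 hepatocyte genes, 8 had an RPB1 region in SHP-1-WT and 7 in SHP-1-KO, where APOA1 was missing, and 8 had a pSer2 region in both. Of 3 fibroblast genes and 2 endothelial genes, 1 each had an RPB1 region in both. For pSer2, 1 endothelial gene had a region in both, and 1 fibroblast gene (PDGFRB) had one in SHP-1-KO alone. At PTPN6 the strongest RPB1 region had a fold enrichment of 24.0 in SHP-1-WT and 17.2 in SHP-1-KO, and the strongest pSer2 region 4.03 and 5.24. Polymerase at PTPN6 does not measure SHP-1 protein and so does not check the knockout.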

How the data were processed

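Lists of RPB1 and pSer2 regions from ChIP-seq of HepG2 cells were used, with genotypes taken from the sample labels. Per the labels and methods, the authors used Trimmomatic for trimming, BWA for alignment (hg38) and MACS2 for peaks over input, within the MUGQIC pipeline. Tool versions and the annotation release are not given in the sources used here. The deposited values are a ratio (summit enrichment over input, in fold), the −log10 p-value and q-value, and a score that is the whole part of 10 times the −log10 q-value. A deposited csaw table of the authors' own comparison of RPB1 (p-values, window counts, direction) was not used. Reads were not used, so library depth is unknown.

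The 10 genes, the further list of 36 genes and the marker lists were chosen with earlier results of these data known. The result of the blood marker list is not reported here. Regions were taken by the authors' gene symbol. Positions relative to canonical GENCODE release 44 transcripts, whatever the symbol, were added after seeing the data. The strongest region per gene was compared as log2 of SHP-1-KO over SHP-1-WT, with 2-fold as the size named. Regions counted as shared overlapped by at least 1 bp. With 1 library per group there is no test. The genes named are the 10, the highest and lowest of the 36 per antibody, overlapped neighbors and PCK1. The overlap and ratio functions were tested on simulated data. Python 3.11.15, pandas 2.3.3, NumPy 2.4.6, SciPy 1.17.1 and Matplotlib 3.10.9 were used. Alternatives were a stricter q-value, gene intervals, distinct intervals, reciprocal overlap, centring, a 1.5-fold size, summed enrichment and other classes of region.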

Additional observations from a re-analysis of the deposited data

How the results depend on the processing

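Keeping only regions with −log10 q-values from 5 upward, the RPB1 counts were 13 in SHP-1-WT and 10 in SHP-1-KO, and the pSer2 counts were 48 and 35. The shared percentages were then 61.5% of SHP-1-WT and 90% of SHP-1-KO RPB1 regions, beside 69.6% and 81.8% of all such regions. For pSer2 they were 39.6% and 51.4%, beside 54.0% and 70.8% of all such regions. Without EP300 the pSer2 counts were 72 and 59. Taking regions by the annotated gene interval extended by 3 kb upstream admits the start regions of EP300 and CREB1. It raised the shared percentage of RPB1 regions to 55.6% in SHP-1-WT and 78.3% in SHP-1-KO. A reciprocal overlap of at least 50% lowered the shared pSer2 percentages to 25% and 28.7%. Centring on all genes moved the median RPB1 promoter log2 ratio from -0.16 to 0.30. Summing fold enrichment times length over regions gave medians of -0.58 for RPB1 and -0.32 for pSer2, where all genes had -0.66 and -0.41, and put 1 gene, PRKACA, past 2-fold for each antibody. Such sums move with how much was called: the promoter RPB1 regions of PRKACA covered 4372 bp in SHP-1-WT and 1778 bp in SHP-1-KO at mean fold enrichments of 23.7 and 28.0, and its pSer2 regions 2958 and 716 bp at 4.59 and 4.00, with 3 of the 7 SHP-1-WT pSer2 regions in ASF1B. The members in both lists covered 11884 and 8368 bp for RPB1 (28.8 and 24.8) and 60330 and 50923 bp for pSer2 (4.76 and 4.89). Regions within 1 kb of the canonical start put 1 gene, EP300, past 2-fold. The cause of the other shifts was not tested. The 1.5-fold size, the −log10 q-value for the ratios, distinct intervals, the promoter within 1 kb, regions of any annotation and pSer2 regions outside promoters moved none of these counts by over 1.5 times and none of the medians by over 0.1 on the log2 scale. The promoter class already ended at 1000 bp, so that alternative changed nothing.

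No paired analysis was possible because each antibody and genotype had 1 library, and for the same reason no library was left out in turn. Library depth is unknown, fold enrichments of separate lists are not known to share a scale, and a gene missing from a list is not shown to be unoccupied. Gene symbols follow the nearest listed start, and ChIP-seq does not tell overlapping genes apart.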
